A study of Schizosaccharomyces pombe with 36 samples.

Results

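The RNA levels of 63 genes for the synthesis of amino acids and nucleotides were followed in fission yeast (Schizosaccharomyces pombe) through 180 min of osmotic stress. The genes were chosen by name: the protein-coding features of the deposited table whose symbol is a biosynthesis prefix (such as arg, lys, his, leu, met, ade or ura) followed by a number. They are 63 of 5133 protein-coding genes and of 7039 features in all: 10 ade, 8 arg, 7 met, 6 his, 5 lys, 5 ura, 4 trp, 3 cys, 3 leu, 2 gdh, 2 gua and 2 ilv genes, and 1 each of aro, asn, gln, glt, pro and ser. No level was used to choose them, and all 63 passed the filter on low values.

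Strand-specific total RNA, depleted of ribosomal RNA, was sequenced from cells labelled atf21Δ, whose label is a deletion of the bZIP transcription factor gene atf21, and from wild-type (WT) cells. How much of the atf21 feature the deletion removes was not analysed here. Both strains grew in yeast extract medium, and the stress was 1 M sorbitol. Cells were taken just before it (0 min) and 15, 30, 60, 120 and 180 min into it, in 3 biological replicates per strain and time, which gives 18 libraries per strain and 36 in all. Nutritional marker alleles of the strains were not analysed here, and read counts do not tell alleles apart. Of the genes often used as such markers, ade6, leu1 and ura4 had reads in every library.

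Yeast extract supplies amino acids and bases, yet fission yeast can make all of them, each through a chain of enzymes that starts from a few central precursors. Purines are built on a ribose phosphate up to inosine monophosphate (IMP), from which 1 branch leads to AMP and another to GMP, and carbon units for the ring come from folate. Nitrogen enters through glutamate and glutamine, and sulphur through the reduction of sulphate, so that these pathways feed most of the others.

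The libraries held 7457173 to 20126545 uniquely mapped reads, and the 63 genes had 33 to 27610 reads per gene and library. Ribosomal RNA took 34.2% to 57.5% of the reads on features. The stress response was seen in both strains: 6 of 6 check genes, such as gpd1 for glycerol synthesis and the catalase gene ctt1, were higher at 30 and 60 min in each. The atf21 feature itself had a mean of 21.1 scaled RPKM at 30 min in cells labelled atf21Δ, against 0.312 before stress. In WT the means were 34.5 at 30 min and 0.0836 before stress. Reads on atf21 are thus present in libraries labelled as its deletion, and every difference between the strains below rests on the label alone.

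Levels are given in scaled RPKM: RPKM (reads per kilobase of the feature, relative to all uniquely mapped reads of the library), as deposited, multiplied by a factor that aligns each library to the others. The 63 genes were well expressed, with a median level over the 36 libraries of 81.5 scaled RPKM, against 13.5 over the 4873 protein-coding genes tested. The highest mean was that of gua1, the IMP dehydrogenase gene of the GMP branch, at 444 scaled RPKM. It was followed by met26 (homocysteine methyltransferase, the last step to methionine) at 321, lys4 (homocitrate synthase, the first step to lysine) at 320, gdh1 (NADP-specific glutamate dehydrogenase) at 304 and ilv5 (acetohydroxyacid reductoisomerase) at 299. The lowest means were those of arg7 (argininosuccinate lyase) at 6.67, lys7 (an enzyme that activates the lysine pathway's reductase) at 7.81, gdh2 (NAD-dependent glutamate dehydrogenase) at 8.85 and ade5 at 10.1 scaled RPKM. Members of 1 pathway therefore stood far apart: in the 12 purine genes the mean of ade5 was 10.1 and that of gua1 444, and in arginine synthesis arg7 stood at 6.67 and arg1 (acetylornithine aminotransferase) at 114. Neighbours in this order such as met26 and lys4, or gdh1 and ilv5, differed by less than the spread of their libraries.

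Promoters were searched for 4 short motifs, from 250 bases before to 50 bases after the annotated start of each gene. The motif TGACTC, on either strand, is the site of the budding yeast activator Gcn4, which turns on amino acid synthesis genes in that species. It was found in 4 of the 63 promoters (6.35%) and in 6.99% of 5121 promoters of protein-coding genes. The 4 stretches are shown because they are the matches to the motif most closely tied to these pathways; capitals mark TGACTC or its reverse complement GAGTCA, and each reads 5′ to 3′ on the gene's strand.
glt1: cgtggaaaatatTGACTCtttcgtgattgg
ura2: tatgcttccgaaGAGTCAggacggtggtct
leu3: caacgctcatctTGACTCtatagtgtaaaa
his7: gagatctcttttGAGTCAgaaaatctgacg
The stretches lie upstream of the annotated starts at I:3302720-3302749 on the + strand for glt1, I:4429120-4429149 on the - strand for ura2, II:2690811-2690840 on the - strand for leu3 and II:2042259-2042288 on the - strand for his7, in coordinates of the deposited table, which fit the assembly ASM294v3. Of these genes, leu3 and his7 were higher at 15 min in both strains, glt1 was lower at 60 min in both and ura2 was lower at 180 min in WT. The rises were not called without scaling, nor that of his7 in WT without replicate 3 at 0 min, and the call of ura2 ended without replicate 1 or 3 at 0 min or replicate 2 or 3 at 180 min. TGACGT, bound by bZIP factors of the Atf family, was found in 4 members, arg3, lys2, ilv1 and trp1 (6.35%, against 5.80% of all promoters). CACGTG, a site of basic helix-loop-helix factors, was found in ilv5 alone (1.59% against 1.43%), and GATAA, a core of GATA-factor sites, in 45 members (71.4% against 60.8%). None of the 4 motifs contains another, and a match is a description of these windows only.

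In both strains most of the genes stood highest at 15 min and lowest around 60 min in scaled RPKM, while in unscaled RPKM their median change at 15 min was below 0. The mean of a gene was highest at 15 min for 46 of the 63 genes in cells labelled atf21Δ and for 43 in WT, and it was lowest at 60 min for 33 genes in each strain. The same was not counted over all features, so whether this is particular to the members is not known. Changes were small: 1 gene, gdh2, changed by more than 2-fold in cells labelled atf21Δ, and 4 genes, ade1, gdh2, gua2 and lys7, in WT. The glutamate dehydrogenase genes stood apart from the decline at later times. In cells labelled atf21Δ, 7 of the 10 met and cys genes were called higher at 30 min (20.0% of all features). In WT 1 was (15.6%).

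By limma's F-test over the 5 times of stress (Benjamini-Hochberg adjusted p under 0.05), 57 of 63 genes changed in cells labelled atf21Δ, where 61.7% of the 5882 features tested and 67.7% of the protein-coding genes among them changed. In WT 55 of 63 changed, where 51.6% of the features and 56.1% of the protein-coding genes did. Both strains shared 52 of them, a number not counted over all features. The 5 called in cells labelled atf21Δ but not in WT were ade5, arg4, arg6, arg7 and ilv5, and the 3 called in WT but not in the other strain were cys2, gln1 and ura2, but such a contrast of calls is no test of a difference. No change passed the test in either strain for ade6, his3 and trp4.

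At 15 min, 26 members were higher and 2 lower than at 0 min in cells labelled atf21Δ (15.6% and 12.3% of all features), and 13 were higher and 4 lower in WT (12.5% and 10.9%). At 30 min, 10 were higher and 16 lower in cells labelled atf21Δ (20.0% and 18.3%), and 2 were higher and 18 lower in WT (15.6% and 13.0%). At 60 min, 3 were higher and 29 lower in cells labelled atf21Δ (9.55% and 9.88%), and 1 was higher and 26 lower in WT (7.31% and 7.79%). The share of members that fell at 60 min, 46.0% in cells labelled atf21Δ and 41.3% in WT, was thus above the share of all features, while at 30 min the members fell at 25.4% and 28.6%. The members also stood at higher levels, with a median of 81.5 scaled RPKM, against 11.7 over all features tested. Shares among features of like level were not counted. At 120 min, 2 were higher and 22 lower in cells labelled atf21Δ (5.1% and 4.42%) and 2 were higher and 14 lower in WT (3.33% and 2.31%), and at 180 min 3 were higher and 10 lower in cells labelled atf21Δ (5.24% and 3.42%) and 2 were higher and 15 lower in WT (2.74% and 2.23%).

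Genes called in both strains in the same direction numbered 11 higher at 15 min, 12 lower at 30 min and 21 lower at 60 min. The share of all features called in both strains was not counted, so these numbers only describe the members. Several counts moved by more than 1.5 times when 1 library was left out. In cells labelled atf21Δ, 15 were left higher at 15 min without replicate 2 at 0 min, or without replicate 3 at 15 min, and 5 or 6 were left lower at 180 min without any of the replicates at 0 min or replicates 1 or 2 at 180 min. Leaving out replicate 2 or 3 of WT at 0 min left 6 or 4 higher at 15 min in WT, and leaving out replicate 3 at 15 min left 8. In WT, 7 or 8 were left lower at 120 min without replicates 1 or 2 at 0 min, or 1 or 3 at 120 min, and 7 to 9 lower at 180 min without any of the replicates at 0 min or replicate 1 at 180 min.

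The small counts moved likewise. In cells labelled atf21Δ, 1 was left lower at 15 min without replicate 1 or 2 at 0 min or replicate 1 at 15 min, and 0 without replicate 3 at 0 min. In WT, 2 were left lower at 15 min without replicate 2 or 3 at 0 min or replicate 1 at 15 min. At 30 min in WT, 4 were higher without replicate 1 at 0 min, and 1 without replicate 2 or 3 at 0 min or replicate 2 at 30 min. At 60 min in WT, 2 were higher without replicate 1 or 3 at 15 min. At 180 min in WT, 0 were higher without replicate 1 at 0 min, and 1 without replicate 2 or 3 at 0 min or replicate 2 at 180 min.

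Over the 5 times of stress in order, the members' median log2 change ran 0.26, -0.07, -0.33, -0.25 and -0.11 in cells labelled atf21Δ. In WT it ran 0.22, -0.10, -0.37, -0.21 and -0.23. Without replicate 2 at 180 min the median at that time was -0.039 in cells labelled atf21Δ, and without replicate 1 at 30 min it was -0.062 in WT. The median of all features tested lay between -0.01 and 0.04. The rise at 15 min depends on the scaling of the libraries. In the unscaled RPKM the median log2 change of all features was -0.43 at 15 min and -0.30 at 30 min in cells labelled atf21Δ, and -0.46 at 15 min and -0.38 at 30 min in WT. The members' own unscaled median at 15 min was -0.23 in cells labelled atf21Δ, above that of all features by 0.20, and -0.31 in WT, above it by 0.15, and limma called 0 members higher. As a share of the reads outside ribosomal RNA, the 63 genes together took 3.25% ± 0.44 (SD, n = 3) at 15 min in cells labelled atf21Δ, against 3.41% ± 0.28 before stress. In WT they took 2.97% ± 0.21 at 15 min, against 3.32% ± 0.11. At 60 min the share was 2.65% ± 0.31 in cells labelled atf21Δ and 2.48% ± 0.09 in WT, and every library at 60 min lay below all of its strain's libraries at 0 min. All falls called at 30 min, 16 in cells labelled atf21Δ and 18 in WT, were also called without scaling. This says little, because the unscaled changes of most features at 30 min lay lower, which deepens a fall.

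**Figure D1:**
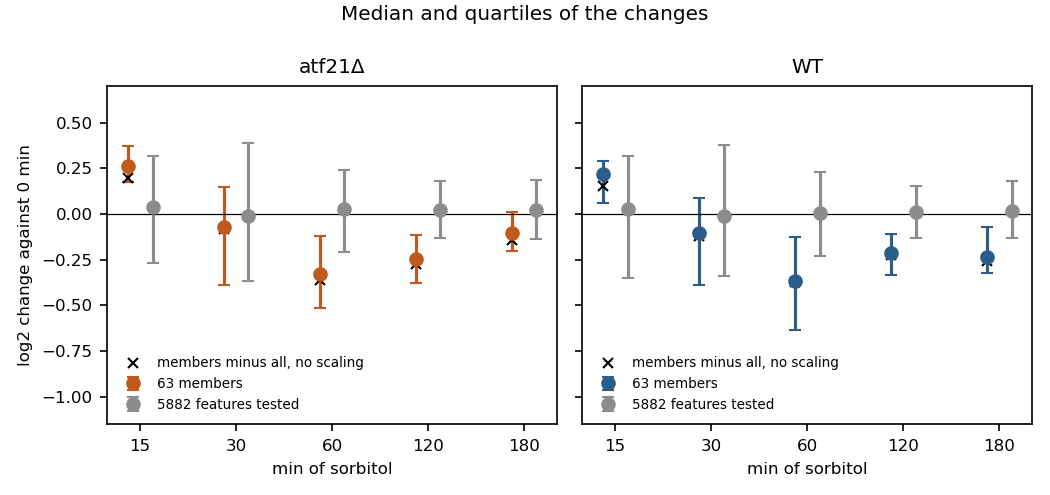
Median (points) and quartiles (bars) of the log2 change against 0 min for the 63 genes (colour) and all 5882 features tested (grey), by minutes of sorbitol, in cells labelled atf21Δ (left) and WT (right). Crosses show the members' median minus that of all features in unscaled RPKM: 0.20 at 15 min and -0.36 at 60 min in cells labelled atf21Δ, and 0.15 and -0.37 in WT.

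**Figure D2:**
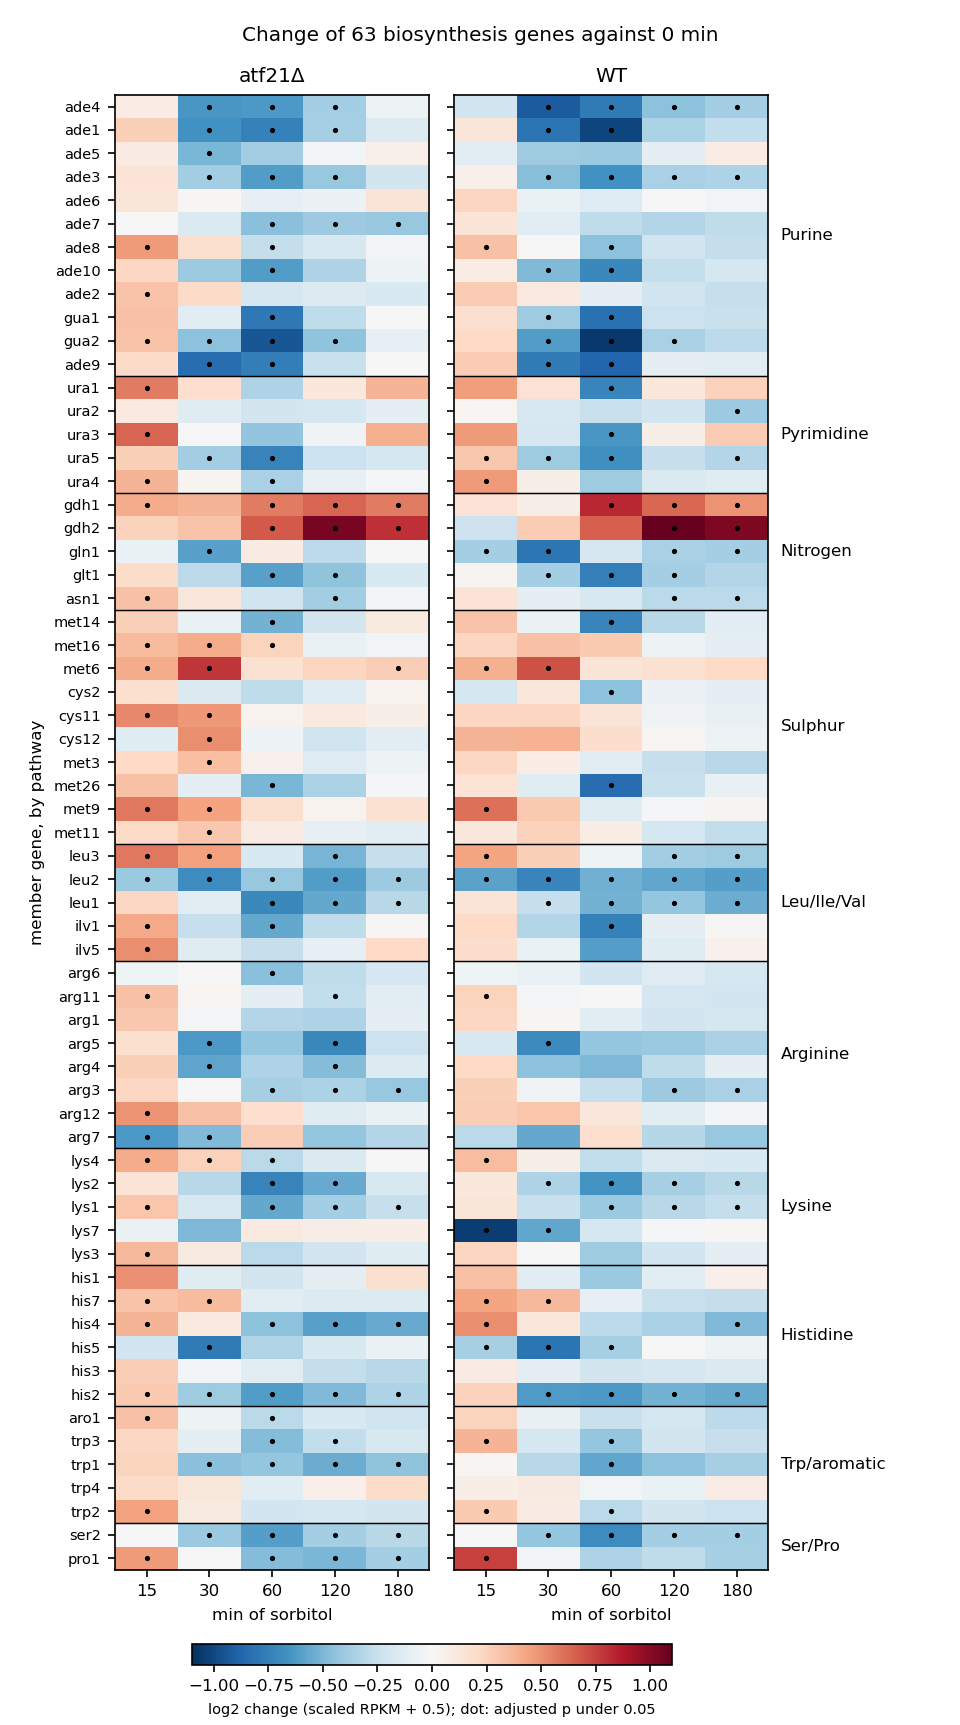
Log2 change of scaled RPKM against 0 min (colour) for each of the 63 genes (rows, by pathway) and time (columns), in cells labelled atf21Δ (left) and WT (right). Dots mark calls with an adjusted p under 0.05: most genes at 60 min are blue, while most sulphur genes at 30 min (median -0.15 in WT when unscaled) and gdh1 and gdh2 at later times are red.

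No purine gene was called higher at 30 or 60 min in either strain (20.0% and 9.55% of all features in cells labelled atf21Δ, 15.6% and 7.31% in WT). The list holds 12 genes from the first step to AMP and GMP, including the folate enzyme gene ade9. Of these, 6 were lower at 30 min and 9 at 60 min in cells labelled atf21Δ (18.3% and 9.88% of all features). In WT 7 and 8 were lower (13.0% and 7.79%). Their median log2 change at 60 min was -0.62 in cells labelled atf21Δ and -0.69 in WT. By 180 min it was -0.05 in cells labelled atf21Δ and -0.25 in WT.

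The gene of the first step, ade4 (amidophosphoribosyltransferase, which commits ribose phosphate to purines), read 63.5, 66.7 and 60.6 scaled RPKM at 30 min and 96.8, 92.7 and 108 at 0 min in the replicates labelled atf21Δ. In WT it read 57.9, 63.3 and 55.2 at 30 min and 117, 112 and 104 at 0 min. The groups did not overlap in either strain, but this was a condition for picking the gene and is no further result. The changes on the log2(scaled RPKM + 0.5) scale, with their SE, were -0.64 ± 0.09 (adjusted p = 4.21e-05) in cells labelled atf21Δ and -0.91 ± 0.10 (adjusted p = 5.83e-06) in WT. The gene of a bifunctional enzyme of the next steps, ade1, read 72.6, 78.3 and 67.3 scaled RPKM at 30 min in the replicates labelled atf21Δ, against 113, 104 and 130.2 at 0 min. WT replicates read 59.1, 92.2 and 70.5, against 117, 138 and 127, with no overlap, as the same condition required. Its lowest mean was at 60 min in both strains (log2 change -0.74 ± 0.12 in cells labelled atf21Δ, adjusted p = 0.000186, and -1.01 ± 0.15 in WT, adjusted p = 0.000112). The formylglycinamidine synthase gene ade3 followed the same course, with -0.62 ± 0.09 in cells labelled atf21Δ (adjusted p = 5.04e-05) and -0.67 ± 0.08 in WT (adjusted p = 1.04e-05) at 60 min.

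The gene of a folate enzyme that makes carbon units for the ring fell with them. The trifunctional formate-tetrahydrofolate ligase gene ade9 read 24.0, 32.1 and 25.7 scaled RPKM at 30 min in the replicates labelled atf21Δ, against 50.4, 44.2 and 51.8 at 0 min. The WT libraries held 30.0, 32.6 and 24.5, against 49.9, 51.2 and 47.8. These are changes of -0.83 ± 0.12 in cells labelled atf21Δ (adjusted p = 4.75e-05) and -0.77 ± 0.11 in WT (adjusted p = 0.000136), and by 180 min the means were back at 48.9 ± 3.5 (SD, n = 3) in cells labelled atf21Δ and 45.9 ± 5.3 (SD, n = 3) in WT. Of the last steps to IMP, ade10 (bifunctional, closing the ring) fell at 60 min by 0.61 ± 0.17 on the log2 scale in cells labelled atf21Δ (adjusted p = 0.0172, not called without replicate 3 at 0 min or replicate 2 at 60 min) and by 0.71 ± 0.10 in WT (adjusted p = 0.000141).

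Both genes of the GMP branch fell at 60 min, while ade2 of the AMP branch was not called. The lyase gene ade8, which serves both the AMP branch and the way to IMP, was lower at 60 min in both strains, though not without scaling. The gene gua2 (GMP synthase) read 90.6, 82.2 and 103 scaled RPKM at 60 min in the replicates labelled atf21Δ, against 174, 162 and 194 at 0 min. Levels in WT were 90.6, 82.0 and 85.2, against 178, 178 and 182, so that all 6 libraries at 60 min were lower than any at 0 min. The log2 changes were -0.94 ± 0.10 in cells labelled atf21Δ (adjusted p = 2.89e-06) and -1.06 ± 0.11 in WT (adjusted p = 2.09e-06), and those of gua1 at 60 min were -0.78 ± 0.13 in cells labelled atf21Δ (adjusted p = 0.000202) and -0.82 ± 0.10 in WT (adjusted p = 1.36e-05). Even at its low point gua1 read 296, 219 and 315 scaled RPKM in the replicates labelled atf21Δ, against 465, 457 and 490.4 at 0 min, and 301, 293 and 292 in WT, against 539, 535 and 491 at 0 min. The adenylosuccinate synthetase gene ade2 had -0.18 ± 0.09 in cells labelled atf21Δ (adjusted p = 0.189) and -0.11 ± 0.11 in WT (adjusted p = 0.633) at 60 min. Within a library, where scaling cancels, the ratio of gua2 to ade2 was 0.579 ± 0.071 (SD, n = 3) at 60 min in cells labelled atf21Δ, against 0.979 ± 0.108 before stress. In WT it was 0.530 ± 0.068, against 1.03 ± 0.11, and the groups did not overlap. This pair, like the others whose ratios are given below, was chosen after the values had been seen.

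Other purine genes varied. The lyase gene ade8, used both on the way to IMP and to AMP, rose at 15 min (0.47 ± 0.09 in cells labelled atf21Δ, adjusted p = 0.000691, and 0.32 ± 0.09 in WT, adjusted p = 0.0264) and fell at 60 min (-0.27 ± 0.09 in cells labelled atf21Δ, adjusted p = 0.0381, and -0.45 ± 0.09 in WT, adjusted p = 0.00273). Neither was called without scaling. The WT rise was not called without replicate 2 or 3 at 0 min or replicate 1 at 15 min, nor the fall in cells labelled atf21Δ without any of 4 libraries (replicates 1 and 3 at 0 min, 1 and 2 at 60 min). The gene ade7 (SAICAR synthase) fell at 60 min in cells labelled atf21Δ (-0.46 ± 0.08, adjusted p = 0.000609) and read -0.28 ± 0.11 in WT (adjusted p = 0.0906). The carboxylase gene ade6 was among the 3 members not called in either strain, with 45.0, 42.2 and 50.4 scaled RPKM at 60 min in cells labelled atf21Δ, against 48.9, 44.6 and 53.4 at 0 min. In WT it read 51.8, 39.4 and 46.3, against 48.3, 48.5 and 54.1, so the groups overlapped. The low gene ade5 (GAR formyltransferase) fell at 30 min in cells labelled atf21Δ (-0.50 ± 0.14, adjusted p = 0.0131, not called without replicate 2 at 0 min or replicate 3 at 30 min) and read -0.39 ± 0.16 in WT (adjusted p = 0.124).

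**Figure D3:**
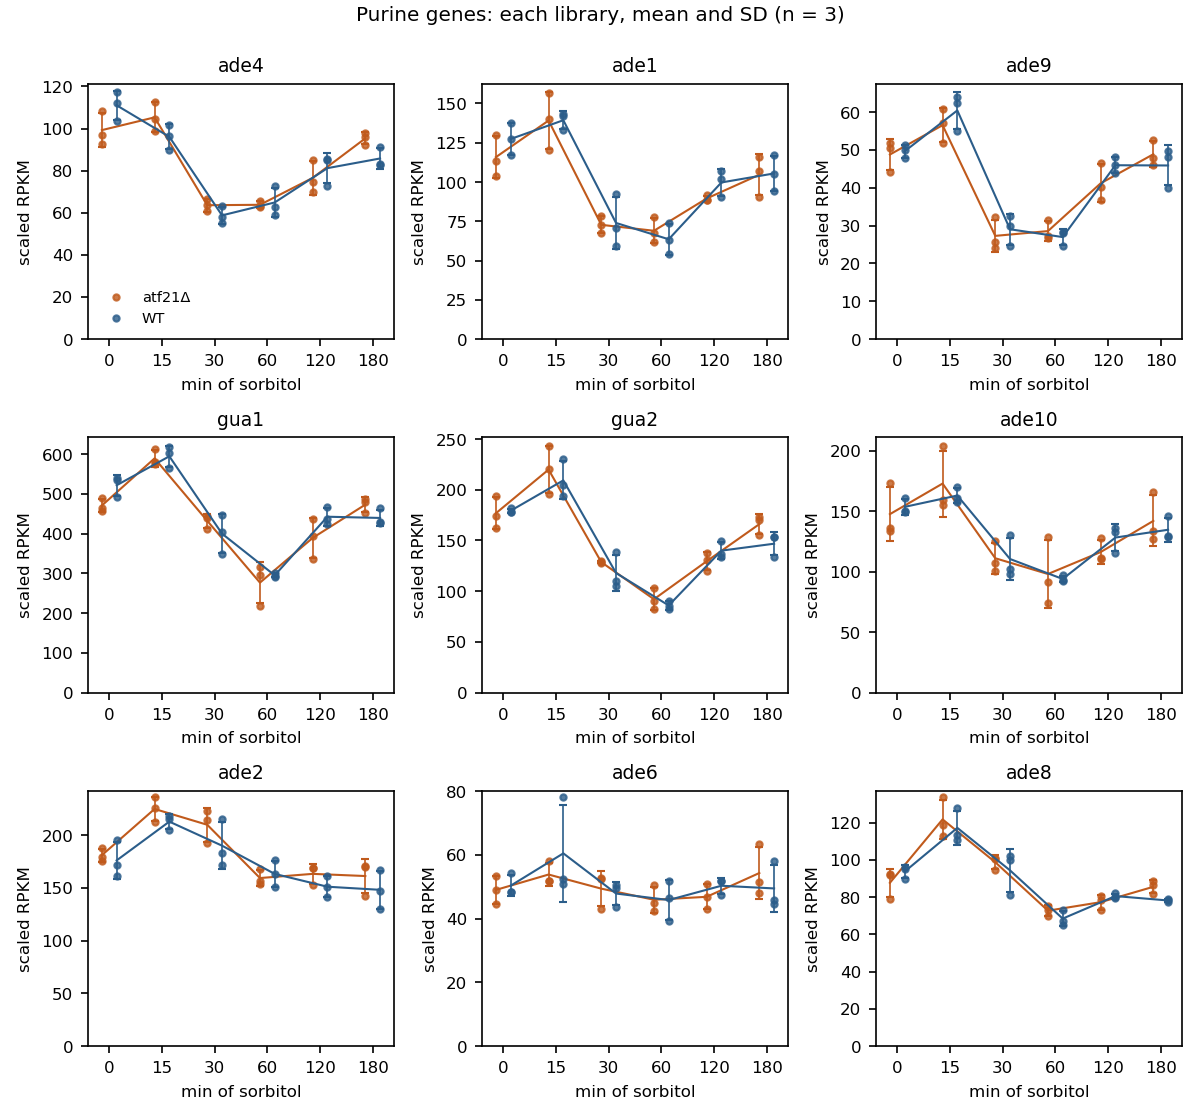
Scaled RPKM of 9 purine genes in each library (points), with means (lines) and SD (bars, n = 3) by minutes of sorbitol, in cells labelled atf21Δ (orange) and WT (blue). The genes ade4, ade1, ade9 and gua2 were low at 30 and 60 min, whereas ade6 was not called at any time.

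Of the 5 pyrimidine genes, 4 changed over time in cells labelled atf21Δ (61.7% of all features) and all 5 in WT (51.6%). In each strain 1 was lower at 30 min (18.3% of all features in cells labelled atf21Δ and 13.0% in WT). At 60 min 2 were lower in cells labelled atf21Δ (9.88%) and 3 in WT (7.79%). The orotate phosphoribosyltransferase gene ura5 was lower at both times in both strains, though at 30 min in cells labelled atf21Δ the call ended without replicate 2 or 3 at 0 min or replicate 1 or 3 at 30 min. It read 46.5, 48.9 and 43.4 scaled RPKM at 60 min in the replicates labelled atf21Δ, against 73.6, 77.0 and 81.0 at 0 min. WT replicates read 51.1, 50.4 and 47.0, against 81.0, 78.9 and 78.4. The log2 changes were -0.73 ± 0.11 in cells labelled atf21Δ (adjusted p = 0.000138) and -0.68 ± 0.09 in WT (adjusted p = 4.85e-05). It is annotated 125 bases downstream of arg6, on the same strand.

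The first-step gene ura1 (carbamoyl-phosphate synthase and aspartate carbamoyltransferase) had 112, 119 and 147 scaled RPKM at 60 min in cells labelled atf21Δ, against 154, 151 and 170.2 at 0 min (-0.34 ± 0.14, adjusted p = 0.107). In WT it had 136, 92.6 and 109.9, against 149.6, 209 and 200.2, a fall of 0.72 ± 0.20 (adjusted p = 0.0227) that was not called without replicate 2 or 3 at 0 min or replicate 2 or 3 at 60 min. It was highest at 15 min in both strains, with 0.57 ± 0.14 in cells labelled atf21Δ (adjusted p = 0.00772, not called without scaling) and 0.46 ± 0.20 in WT (adjusted p = 0.154). The decarboxylase gene ura4 fell at 60 min in cells labelled atf21Δ (-0.35 ± 0.09, adjusted p = 0.0064, not called without scaling) and had -0.39 ± 0.13 in WT (adjusted p = 0.058). The dihydroorotate dehydrogenase gene ura3 had -0.43 ± 0.20 at 60 min in cells labelled atf21Δ (adjusted p = 0.157) and fell in WT (-0.64 ± 0.21, adjusted p = 0.0458). That call ended with no filter or without any of 13 libraries, among them replicates 2 and 3 at 0 min and at 60 min. The dihydroorotase gene ura2 had the lowest mean of the 5, 22.0 scaled RPKM, and its changes at 60 min were -0.20 ± 0.10 in cells labelled atf21Δ and -0.25 ± 0.11 in WT, neither called.

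Genes that move nitrogen between ammonium, glutamate and glutamine went in opposite directions. The glutamate dehydrogenase genes gdh1 and gdh2 were higher at 120 and 180 min in both strains, and gdh1 also at 60 min, whereas glt1 (glutamate synthase), gln1 (glutamate-ammonia ligase, or glutamine synthetase) and asn1 (asparagine synthetase) fell at 1 time or more. The glutamate dehydrogenases form or break down glutamate with ammonium, while gln1 and glt1 together take it up through glutamine.

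The level of gdh1 was 422, 289 and 372 scaled RPKM at 60 min in the replicates labelled atf21Δ, against 251, 239 and 229 at 0 min. The WT libraries held 348, 399.9 and 385, against 205, 212 and 220.2. All 6 libraries at 60 min were above every library at 0 min, by 0.57 ± 0.13 in cells labelled atf21Δ (adjusted p = 0.00414) and 0.83 ± 0.14 in WT (adjusted p = 0.000538) on the log2 scale. The gene stayed high at 180 min (0.57 ± 0.13 in cells labelled atf21Δ, adjusted p = 0.00427, and 0.50 ± 0.14 in WT, adjusted p = 0.0229). The WT call ended without any replicate at 0 min or replicate 2 at 180 min. The calls of gdh1 in cells labelled atf21Δ at 60 and 180 min, with those of WT at 120 and 180 min, ended without scaling. The level of gdh2 was 11.2, 14.8 and 14.5 scaled RPKM at 120 min in cells labelled atf21Δ, against 5.14, 6.11 and 7.7 at 0 min. Levels in WT were 12.0, 9.91 and 14.6, against 4.16, 6.87 and 5.23. Its changes, 1.04 ± 0.17 in cells labelled atf21Δ (adjusted p = 0.000199) and 1.11 ± 0.27 in WT (adjusted p = 0.00868), were past 2-fold in both strains. The ratio of gdh2 to gdh1 within a library was 0.0363 ± 0.0067 (SD, n = 3) at 120 min in cells labelled atf21Δ, against 0.0266 ± 0.0066 before stress. In WT it was 0.0369 ± 0.0074, against 0.0255 ± 0.0062, and the groups overlapped in both. At 180 min the WT call of gdh2 ended without replicate 1 at 0 min (adjusted p = 0.068), and that in cells labelled atf21Δ without scaling.

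The synthase gene glt1 fell at 60 min, to 75.0, 62.7 and 84.7 scaled RPKM in cells labelled atf21Δ, against 116, 106 and 112 at 0 min, and to 70.2, 65.0 and 67.3 in WT, against 113, 121 and 109 at 0 min. The log2 changes were -0.60 ± 0.12 in cells labelled atf21Δ (adjusted p = 0.00118) and -0.75 ± 0.12 in WT (adjusted p = 0.000358). The ratio of gdh1 to glt1 within a library, which does not depend on scaling, was 4.88 ± 0.66 (SD, n = 3) at 60 min in cells labelled atf21Δ, against 2.15 ± 0.11 before stress. In WT it was 5.61 ± 0.60 at 60 min, against 1.87 ± 0.14. Every library at 30 min or later had a higher ratio than any at 0 min in its strain.

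The ligase gene gln1 had its lowest mean at 30 min and was not called at 60 min. In the replicates labelled atf21Δ gln1 read 74.0, 44.8 and 82.3 scaled RPKM at 30 min, against 101, 84.1 and 113 at 0 min, which is -0.60 ± 0.20 (adjusted p = 0.0462). This call ended with no filter or when any of 11 libraries was left out, replicates 1 and 3 at 0 min and replicate 2 at 30 min among them, the highest adjusted p being 0.224. In WT gln1 read 61.2, 69.0 and 67.6, against 106, 127 and 112, a change of -0.79 ± 0.11 (adjusted p = 4.85e-05). Asparagine synthetase, asn1, fell at 120 min (-0.39 ± 0.10 in cells labelled atf21Δ, adjusted p = 0.00937, and -0.30 ± 0.09 in WT, adjusted p = 0.0308), with calls that ended without replicate 2 at 120 min in cells labelled atf21Δ and without replicate 1 or 2 at 0 min or 1 or 3 at 120 min in WT, and in both strains without scaling.

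**Figure D4:**
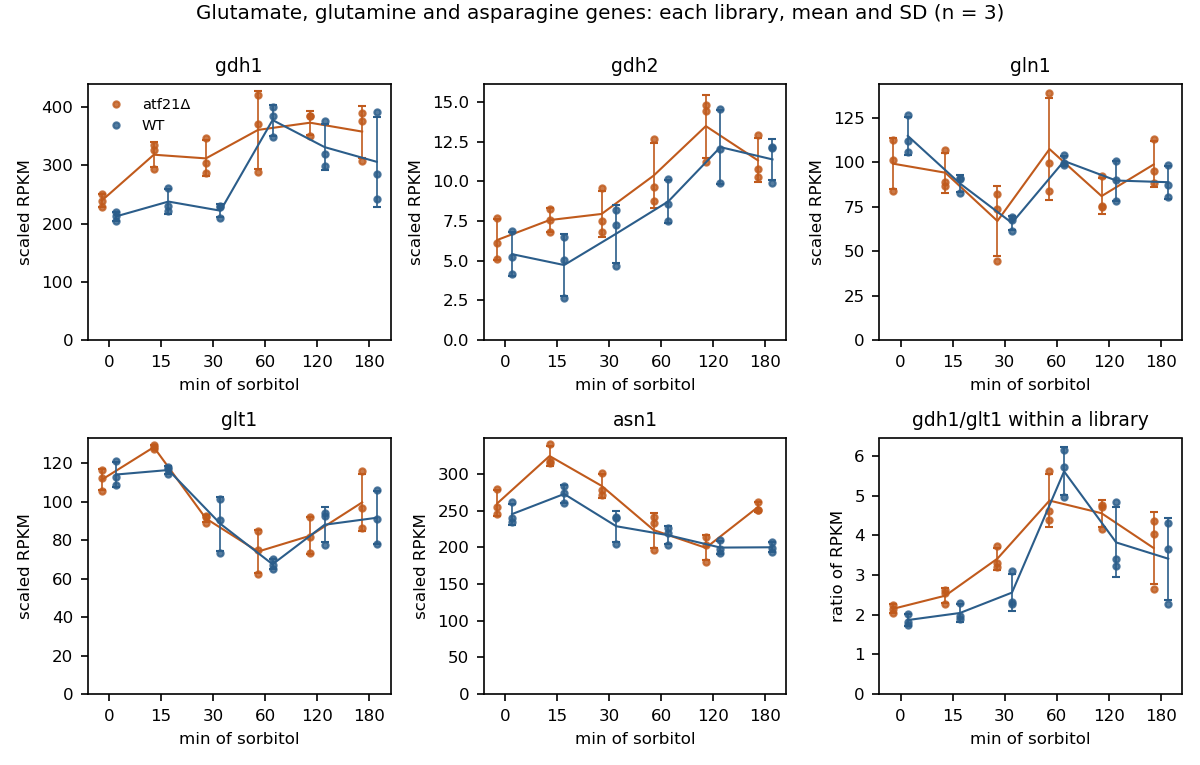
Scaled RPKM of 5 genes of glutamate, glutamine and asparagine synthesis, and the ratio of gdh1 to glt1 within each library, by minutes of sorbitol, for cells labelled atf21Δ (orange) and WT (blue); points are libraries, lines means and bars SD (n = 3). The ratio averaged 4.88 at 60 min and 2.15 at 0 min in cells labelled atf21Δ, and 5.61 at 60 min and 1.87 at 0 min in WT.

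Most of the met and cys genes, taken here as the sulphur amino acid genes, were higher at 30 min in cells labelled atf21Δ, and their medians were above 0 in both strains. Of these 10 genes, which include the folate genes met9 and met11, 7 were higher at 30 min in cells labelled atf21Δ (20.0% of all features). In WT 1 was higher (15.6%), and none was lower in either strain (18.3% and 13.0%). Their median log2 change at 30 min was 0.37 in cells labelled atf21Δ and 0.24 in WT, while the median of all 63 genes was -0.07 in cells labelled atf21Δ and -0.10 in WT. In unscaled RPKM the list's median was 0.060 in cells labelled atf21Δ and -0.15 in WT, where those of all features were -0.30 and -0.38. At 60 min 1 was higher and 2 were lower in cells labelled atf21Δ (9.55% and 9.88%), and 0 higher and 3 lower in WT (7.31% and 7.79%). The list leaves out sua1 and sir1, genes of sulphate use whose symbols the naming rule does not take. Neither was called at 30 min in either strain. Their log2 changes were 0.26 and -0.20 in cells labelled atf21Δ and 0.18 and -0.0077 in WT. At 60 min sir1 was lower in both strains and sua1 in WT.

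The homoserine O-acetyltransferase gene met6, an enzyme of the branch to methionine, rose the most at 30 min among the 63 genes. It read 111, 93.6 and 105 scaled RPKM at 30 min in the replicates labelled atf21Δ, against 59.2, 57.3 and 62.5 at 0 min. In WT it read 107, 98.9 and 95.5, against 70.9, 60.9 and 53.8, with no overlap, which was a condition for picking the gene. The log2 changes were 0.78 ± 0.09 in cells labelled atf21Δ (adjusted p = 3.54e-06) and 0.70 ± 0.12 in WT (adjusted p = 0.000586), the second of which was not called without scaling. Its ratio to met26 within a library was 0.338 ± 0.0051 (SD, n = 3) at 30 min in cells labelled atf21Δ, against 0.182 ± 0.0035 before stress. In WT it was 0.316 ± 0.118, against 0.178 ± 0.071, and the groups overlapped. The gene is annotated 494 bases upstream of ilv5, on the same strand.

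A further 3 genes of this list rose at 30 min in cells labelled atf21Δ with calls held in every omission of 1 library: met16 (PAPS reductase, 0.41 ± 0.08, adjusted p = 0.00152), cys12 (a cysteine synthase-like protein, 0.51 ± 0.11, adjusted p = 0.00247) and met9 (methylenetetrahydrofolate reductase, 0.45 ± 0.11, adjusted p = 0.0082). The gene cys12 read 22.9, 20.2 and 19.9 scaled RPKM at 30 min in cells labelled atf21Δ, against 13.9, 14.3 and 15.4 at 0 min. WT replicates read 19.0, 15.9 and 16.4, against 15.4, 9.94 and 14.0. The gene met16 read 68.8, 78.7 and 66.9 at 30 min in cells labelled atf21Δ, against 55.7, 53.1 and 52.0 at 0 min. The WT libraries held 71.6, 68.1 and 66.8, against 56.9, 54.2 and 54.1. Both genes were picked under the condition that libraries at 30 and 0 min do not overlap in either strain, so their separation is no further result. In WT met16, cys12 and met9 read 0.32 ± 0.12, 0.39 ± 0.14 and 0.29 ± 0.12 (adjusted p = 0.0955, 0.0695 and 0.136), and none was called. The cysteine synthase gene cys11 was higher at 30 min in cells labelled atf21Δ (0.48 ± 0.13, adjusted p = 0.0146, not called without replicate 1 at 0 min) and read 0.23 ± 0.10 in WT (adjusted p = 0.131). The second methylenetetrahydrofolate reductase gene, met11, and the cystathionine gamma-synthase gene met3 were called at 30 min in cells labelled atf21Δ, but the call of met11 ended when any of 7 libraries was left out and that of met3 when any of 11 was, all 3 replicates at 30 min among them in each case. The gene met11 read 40.8, 40.7 and 40.7 scaled RPKM at 30 min in cells labelled atf21Δ, against 35.6, 30.1 and 34.0 at 0 min. Levels in WT were 43.7, 37.9 and 42.7, against 37.7, 32.9 and 33.5 (0.25 ± 0.10, adjusted p = 0.0904). Without scaling, the rise of met6 in cells labelled atf21Δ was the only one of these still called.

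By contrast, met14 (adenylyl-sulfate kinase, which prepares sulphate for reduction) fell at 60 min. It read 75.1, 69.9 and 78.6 scaled RPKM at 60 min in the replicates labelled atf21Δ, against 117, 100.1 and 105 at 0 min. In WT it read 81.3, 70.8 and 70.9, against 133, 120.4 and 116, with log2 changes of -0.52 ± 0.10 in cells labelled atf21Δ (adjusted p = 0.000806) and -0.73 ± 0.13 in WT (adjusted p = 0.000663). The gene met26 fell at the same time by 0.50 ± 0.15 in cells labelled atf21Δ (adjusted p = 0.0214) and 0.84 ± 0.24 in WT (adjusted p = 0.0245). Each call ended when any of 3 libraries was left out: replicates 2 and 3 at 0 min and replicate 1 at 60 min in cells labelled atf21Δ, and replicates 2 and 3 at 0 min and replicate 2 at 60 min in WT. The WT level of met26 at 0 min, 274, 438 and 399.8 scaled RPKM, was lowest in replicate 1.

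**Figure D5:**
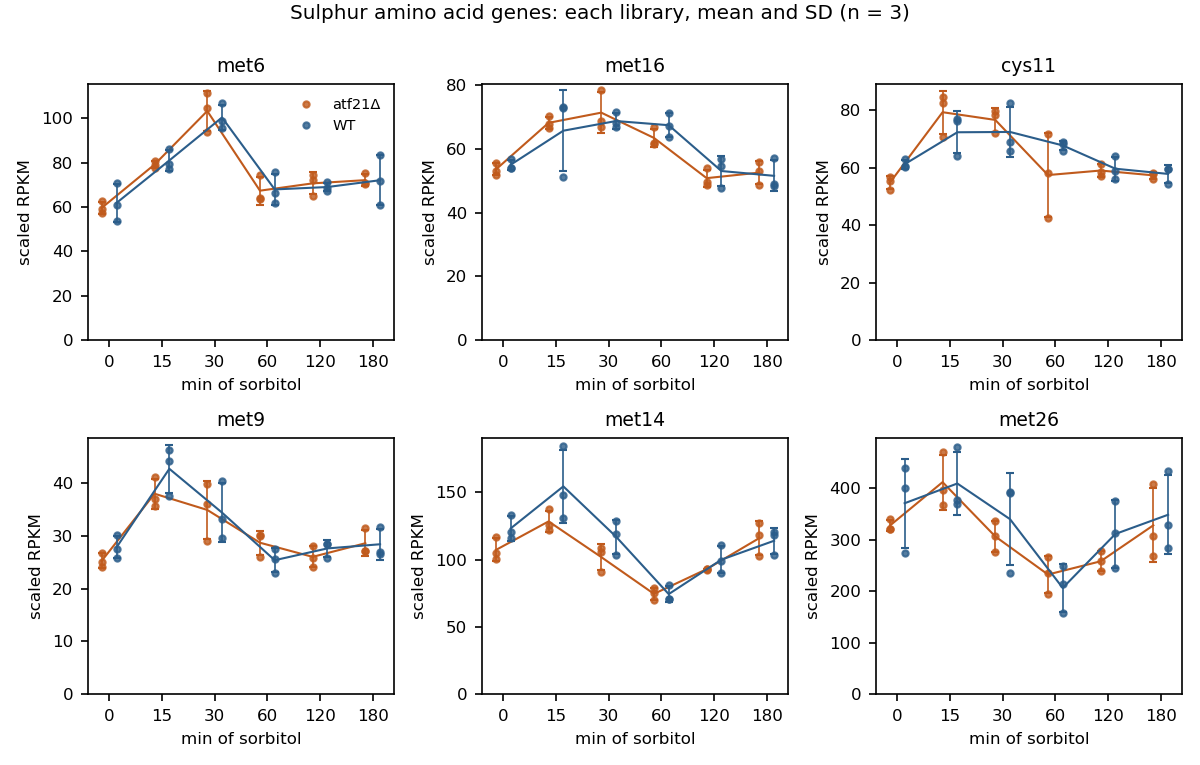
Scaled RPKM of 6 sulphur amino acid genes in each library (points), with means (lines) and SD (bars, n = 3) by minutes of sorbitol, for cells labelled atf21Δ (orange) and WT (blue). The gene met6 was above its 0 min libraries at 30 min in both strains, a condition for picking it. The gene met14 was below its own 0 min libraries at 60 min.

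Leucine synthesis split within a single pathway. The dehydratase gene leu2 was lower at all 5 times in both strains, whereas the gene of the first step, leu3 (2-isopropylmalate synthase), was higher at 15 min in both and lower at 120 min in both, in WT not without scaling. In the replicates labelled atf21Δ, leu2 read 121, 94.3 and 124 scaled RPKM at 30 min, against 185, 179 and 182 at 0 min. The WT replicates read 93.9, 109 and 104 at 30 min, against 183, 173 and 153 at 0 min. The changes were -0.69 ± 0.12 in cells labelled atf21Δ (adjusted p = 0.000535) and -0.73 ± 0.10 in WT (adjusted p = 6.58e-05) at 30 min. In cells labelled atf21Δ the calls at 15, 60 and 180 min ended without any replicate at 0 min, or replicate 1 at 15 min, replicates 1 or 2 at 60 min and replicates 1 or 2 at 180 min, the highest adjusted p being 0.112. The call at 60 min also ended without scaling (adjusted p = 0.0729).

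The first-step gene leu3 read 385, 386 and 382 scaled RPKM at 15 min in the replicates labelled atf21Δ, against 261, 253 and 256 at 0 min. WT replicates read 295, 314 and 307, against 245, 225 and 209.9. At 30 min it still read 381, 345 and 329 in cells labelled atf21Δ (adjusted p = 0.00269) and 284, 282 and 248 in WT (adjusted p = 0.0547), and without scaling the call in cells labelled atf21Δ ended (adjusted p = 0.62). The changes at 15 min, 0.58 ± 0.10 in cells labelled atf21Δ (adjusted p = 0.000282) and 0.43 ± 0.09 in WT (adjusted p = 0.00252), were not called without scaling. The ratio of leu3 to leu2 within a library was 2.81 ± 0.11 (SD, n = 3) at 15 min in cells labelled atf21Δ, against 1.41 ± 0.0029 before stress. In WT it was 2.73 ± 0.24 at 15 min, against 1.34 ± 0.036, and the groups did not overlap. Both genes were picked for libraries that do not overlap between 30 and 0 min, leu3 higher and leu2 lower, so this separation is no independent result. The last gene of the 3, leu1 (3-isopropylmalate dehydrogenase), was lower at 60, 120 and 180 min in both strains, with -0.71 ± 0.10 in cells labelled atf21Δ (adjusted p = 4.76e-05) and -0.52 ± 0.08 in WT (adjusted p = 0.000262) at 60 min. At 180 min in cells labelled atf21Δ it was not called when any of 6 libraries was left out, the 3 replicates at 0 min and replicates 1 and 2 at 180 min among them. The acetolactate synthase gene ilv1 of isoleucine and valine synthesis fell at 60 min in cells labelled atf21Δ (-0.56 ± 0.14, adjusted p = 0.00619). In WT ilv1 fell by 0.74 ± 0.24 (adjusted p = 0.0411), with a call that ended when any of 6 libraries was left out, replicates 2 and 3 at 0 min, replicates 2 and 3 at 60 min, replicate 3 at 30 min or replicate 2 at 120 min.

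Of the 8 arginine genes, 3 were lower at 30 min and 2 at 60 min in cells labelled atf21Δ (18.3% and 9.88% of all features). In WT, 1 was lower at 30 min and 0 at 60 min (13.0% and 7.79% of all features). The largest log2 change of the list at 30 min in each strain was that of arg5, a subunit of the arginine-specific carbamoyl-phosphate synthase: 28.0, 24.6 and 33.7 scaled RPKM at 30 min in cells labelled atf21Δ, against 41.2, 40.3 and 53.4 at 0 min. The WT libraries held 18.8, 32.1 and 25.2, against 38.0, 44.6 and 39.5. The log2 changes were -0.63 ± 0.20 in cells labelled atf21Δ (adjusted p = 0.0292) and -0.70 ± 0.18 in WT (adjusted p = 0.0117). Calls ended without replicate 3 at 0 min, 1 at 30 min or 2 at 30 min in cells labelled atf21Δ, and without replicate 2 at 0 min or 1 at 30 min in WT. The other subunit gene, arg4, fell at 30 min in cells labelled atf21Δ (-0.58 ± 0.13, adjusted p = 0.00309) and had -0.45 ± 0.27 in WT (adjusted p = 0.33). The transferase gene arg3, divergent from arg11 with 853 bases between them, fell at 120 min in both strains (-0.35 ± 0.09 in cells labelled atf21Δ, adjusted p = 0.0136, and -0.40 ± 0.11 in WT, adjusted p = 0.0174), but without replicate 2 at 120 min in cells labelled atf21Δ, or without replicate 1 at 0 min or 1 or 3 at 120 min in WT, it was not called, nor in either strain without scaling.

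Of the 5 lysine genes, 3 were lower at 60 min in cells labelled atf21Δ (9.88% of all features) and 2 in WT (7.79%). The homoaconitate hydratase gene lys2 read 82.0, 72.3 and 97.6 scaled RPKM at 60 min in the replicates labelled atf21Δ, against 143, 128 and 147 at 0 min. Levels in WT were 81.7, 82.0 and 86.1, against 137, 137 and 121, changes of -0.74 ± 0.11 in cells labelled atf21Δ (adjusted p = 5.44e-05) and -0.66 ± 0.10 in WT (adjusted p = 0.0002). The aminoadipate-semialdehyde dehydrogenase gene lys1 fell by 0.57 ± 0.08 in cells labelled atf21Δ (adjusted p = 4.76e-05) and 0.41 ± 0.08 in WT (adjusted p = 0.00217), the WT call ending without scaling. The largest log2 change of the list was that of lys7, which activates the reductase Lys1, at 15 min in WT. In cells labelled atf21Δ it read 7.65, 6.44 and 8.7 scaled RPKM at 15 min, against 6.66, 8.19 and 9.19 at 0 min, and the groups overlapped (-0.07 ± 0.17, adjusted p = 0.831). In WT lys7 read 4.27, 5.31 and 3.47, against 9.63, 10.2 and 8.41, which is -1.04 ± 0.17 (adjusted p = 0.000311). At 30 min lys7 held 4.83, 5.11 and 6.66 in cells labelled atf21Δ (adjusted p = 0.0524) and 5.55, 6.55 and 6.39 in WT (adjusted p = 0.0279, not called without replicate 1 or 2 at 0 min or replicate 1 at 30 min). The gene shares 67 bases with nuc2 on its strand, and how reads there were counted is not given in the sources used here.

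The 6 histidine genes did not move together. The dehydratase gene his5 had its low point at 30 min, with 26.3, 36.7 and 27.1 scaled RPKM, against 50.6, 53.0 and 50.4 at 0 min, in cells labelled atf21Δ and 26.1, 31.6 and 26.4, against 50.4, 51.7 and 45.2, in WT (-0.78 ± 0.13 in cells labelled atf21Δ, adjusted p = 0.00027, and -0.80 ± 0.12 in WT, adjusted p = 0.000129). The gene of the last step, his2 (histidinol dehydrogenase), was lower at 30, 60, 120 and 180 min in both (at 180 min in cells labelled atf21Δ not without replicate 1 at 0 min or 3 at 180 min), with -0.61 ± 0.09 in cells labelled atf21Δ (adjusted p = 9.96e-05) and -0.63 ± 0.11 in WT (adjusted p = 0.000931) at 60 min. By contrast his7, for early steps of the pathway, was higher at 30 min in both strains (0.35 ± 0.07 in cells labelled atf21Δ, adjusted p = 0.00238, and 0.35 ± 0.10 in WT, adjusted p = 0.0276), a call that ended without scaling in both and, in WT, without replicate 2 or 3 at 0 min or 1 or 2 at 30 min. The synthase gene his4 was higher at 15 min and lower at 180 min in both strains, the rises not in the unscaled values and in cells labelled atf21Δ not without replicate 3 at 0 min or replicate 2 or 3 at 15 min. The gene his3 was not called in either.

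Among aromatic amino acid genes, trp3 (anthranilate synthase component I) fell at 60 min in both strains (-0.48 ± 0.09 in cells labelled atf21Δ, adjusted p = 0.000756, and -0.43 ± 0.09 in WT, adjusted p = 0.0035), the WT call ending without scaling. Its partner trp1 (component II) fell at the same time (-0.43 ± 0.13 in cells labelled atf21Δ, adjusted p = 0.0295, and -0.57 ± 0.17 in WT, adjusted p = 0.0291), with calls that ended without replicate 2 or 3 at 0 min or replicate 1 or 2 at 60 min, or without scaling, in cells labelled atf21Δ, and without replicate 2 or 3 at 0 min or replicate 2 at 60 min in WT. At 30 min trp1 held 34.6, 37.5 and 39.2 scaled RPKM, against 48.2, 52.3 and 52.7 at 0 min, in cells labelled atf21Δ and 29.2, 39.5 and 45.2, against 41.9, 49.6 and 47.7, in WT (-0.46 ± 0.13 in cells labelled atf21Δ, adjusted p = 0.0204, and -0.31 ± 0.17 in WT, adjusted p = 0.277). The call ended without replicate 2 or 3 at 0 min or replicate 1 at 30 min. The transferase gene trp4, at a mean level of 13.5 scaled RPKM, was not called in either strain. Phosphoserine phosphatase, ser2, which ends the main route to serine, fell at 30 min (-0.41 ± 0.08 in cells labelled atf21Δ, adjusted p = 0.00142, and -0.43 ± 0.10 in WT, adjusted p = 0.00889) and 60 min (-0.61 ± 0.08 in cells labelled atf21Δ and -0.70 ± 0.10 in WT). The proline gene pro1 (gamma-glutamyl phosphate reductase) rose at 15 min, to 68.8, 67.7 and 79.1 scaled RPKM, against 55.9, 51.8 and 47.8 at 0 min, in cells labelled atf21Δ and to 83.2, 63.4 and 79.2, against 51.0, 42.2 and 40.0, in WT (0.47 ± 0.09 in cells labelled atf21Δ, adjusted p = 0.000696, and 0.75 ± 0.13 in WT, adjusted p = 0.000436), though not in the unscaled values. It fell at 60 min in cells labelled atf21Δ (-0.48 ± 0.09, adjusted p = 0.00055) and read -0.34 ± 0.13 in WT (adjusted p = 0.0842).

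Members not described so far moved mainly at 15 min, and their rises then were not called without scaling. The homocitrate synthase gene lys4 rose at 15 min by 0.41 ± 0.08 in cells labelled atf21Δ (adjusted p = 0.00169) and 0.34 ± 0.11 in WT (adjusted p = 0.0373, lost when any of 5 libraries was left out, among them replicates 2 and 3 at 0 min and 1 and 3 at 15 min). The tryptophan synthase gene trp2 and arg11, for an early kinase and reductase of arginine synthesis, were also higher at 15 min in both strains. Their WT calls ended when any of 7 or 9 libraries was left out, the 3 replicates at 0 min among them. In cells labelled atf21Δ, aro1 (multifunctional, for the shared aromatic precursors), arg12 (argininosuccinate synthase), lys3 (saccharopine dehydrogenase) and ilv5 were called higher at 15 min, none without replicate 2 at 0 min or replicate 3 at 15 min. In WT their changes were 0.25 ± 0.10, 0.27 ± 0.12, 0.24 ± 0.16 and 0.19 ± 0.26 in that order. The acetylglutamate synthase gene arg6 was lower at 60 min in cells labelled atf21Δ (-0.46 ± 0.10, adjusted p = 0.00202), and cys2, listed like met6 as a homoserine O-acetyltransferase, was lower at 60 min in WT (-0.45 ± 0.14, adjusted p = 0.0387, not called without scaling or without any of the 6 libraries at 0 and 60 min). For arg1 and his1 (ATP phosphoribosyltransferase, the first step to histidine) the F-test over time was passed in both strains, and no single time was called.

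Between the strains, 1 gene, lys1 at 15 min, lay close to the threshold and was called or not depending on the setting. By the strain-by-time interaction test in limma, over 36 libraries, 0 of 63 genes had a different course, with a lowest adjusted p of 0.74 (0.034% of all features were called). With voom on the recovered reads it was also 0. Unadjusted p under 0.05 was met by 5 members, lys7, leu1, cys12, asn1 and leu3, where 4.56% of all features met it. At single times 0 members were called higher or lower in cells labelled atf21Δ than in WT, where 0.0%, 0.017% or 0.034% of all features were called in each direction and time. The lowest adjusted p was 0.0531, for lys1 at 15 min, with 175, 189 and 186 scaled RPKM in cells labelled atf21Δ and 145, 149.8 and 129.7 in WT, a difference of 0.37 on the log2 scale. Over the alternatives this adjusted p ran between 0.0108 and 0.373, and 9 of them called it, voom on the recovered reads among them. Without WT replicate 2 at 15 min, 4 genes were called, lys1 and lys7 at 15 min, leu3 at 30 min and leu1 at 180 min, and all were higher in cells labelled atf21Δ. Without replicate 2 at 30 min in cells labelled atf21Δ 1 was called, and without their replicate 2 at 60 min 2 were. Unadjusted p under 0.05 was met before stress by 5 members (1.72% of all features), at 15 min by 19 (14.6%) and at 30 min by 14 (8.67%). At 60 min it was met by 2 (3.86%), at 120 min by 2 (1.87%) and at 180 min by 13 (3.33%). As shares of the 63 members these are 7.9%, 30.2%, 22.2%, 3.2%, 3.2% and 20.6% in order of time, and the direction of these differences is not given here.

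Genes of the same pathways outside the naming rule, such as cdc22 for ribonucleotide reductase and sam1 for S-adenosylmethionine synthetase were counted from a list. Of 20 listed, 12 were in the table and all were tested. At 30 min 2 were higher and 2 lower in each strain. Of all features 20.0% and 18.3% were so called in cells labelled atf21Δ, and 15.6% and 13.0% in WT. At 60 min 1 was higher and 4 lower in cells labelled atf21Δ (9.55% and 9.88% of all features), and 1 was higher and 7 lower in WT (7.31% and 7.79%). Of 13 genes listed for uptake and breakdown of amino acids, with the regulators gcn1, gcn2 and fil1 among them, 10 were in the table and 9 tested. At 30 min 4 were higher and 1, the regulator gcn2, lower in cells labelled atf21Δ (20.0% and 18.3% of all features). In WT 4 were higher and 0 lower (15.6% and 13.0%). They included the permease genes per1 and put4, which were higher at 30 min in both strains.

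Reads were counted by strand. Opposite 12 members lie 14 annotated ncRNAs, 9 of which were tested. At 30 min 1 of the 9 was called, SPNCRNA.1658 opposite arg4, and it was lower in each strain (18.3% of all features were lower in cells labelled atf21Δ and 13.0% in WT). Its changes were -0.64 on the log2 scale in cells labelled atf21Δ and -0.77 in WT. At 60 min SPNCRNA.1471 opposite ser2 was lower in both strains, and SPNCRNA.1360 opposite arg12 in cells labelled atf21Δ (9.88% of all features, and 7.79% in WT). At 15 min 1 was lower in each strain (12.3% and 10.9%), and likewise at 120 min (4.42% and 2.31%). None of these ncRNAs was called higher at any time. Opposite 20 members lies another protein-coding gene, and 17 members share bases with another feature on their own strand, where the way reads were counted is not given in the sources used here. The snoRNA features snoR58 inside ade4 and snoR54 inside gua1 are listed at 0 in all 36 libraries, so whether their reads sit in the value of the host gene is not known.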

How the data were processed

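RNA-seq values of 36 libraries were used. The authors sequenced strand-specific, ribosome-depleted total RNA, mapped reads with SHRiMP2, discarded reads with several matches and deposited RPKM per feature of PomBase release 11, relative to the uniquely mapped reads. Whole reads were recovered for 100% of 253404 values (tolerance 0.01). The 63 genes and all lists were chosen with earlier results of these data known.

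RPKM were multiplied by a factor per library, the inverse of a trimmed mean of ratios (trims of 30% and 5%, factors from 0.737 to 1.49), which sets the typical feature to no change. Features above a floor (RPKM of 1 or more in over 6 libraries, 5882 of 7039) were tested as log2(scaled RPKM + 0.5) with limma 3.58.1 (R 4.3.3, trend), so fold changes of low genes are understated. Within each strain of 18 libraries the 5 times of stress were compared with 0 min by an F-test and singly, and all 36 libraries gave the interaction and the strain differences; p-values are two-sided and Benjamini-Hochberg adjusted over all features, and over times for single times, at 0.05. Alternatives were a pseudocount of 0.1 or 1, no scaling, median-ratio scaling, no filter, RPKM of at least 5, a replicate block, voom on recovered reads and leaving out each library. Per-library values are given, among members changed in both strains whose libraries at 30 and 0 min did not overlap, for the 5 largest falls and 5 largest rises at 30 min in WT, and for the largest change at 30 min in WT of each family of 3 or more and the gene with the highest mean; others were singled out after their values were seen. Promoter windows and neighbours came from the table's coordinates and the RefSeq genome ASM294v3. Tables and figures were made with Python 3.11.15 (pandas 2.3.3, numpy 2.4.6, matplotlib 3.10.9, scipy 1.17.1).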

Additional observations from a re-analysis of the deposited data

How the results depend on the processing

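Without scaling of the libraries, 0 members were higher and 7 lower at 15 min in cells labelled atf21Δ (median log2 change -0.23), and 0 were higher and 18 lower in WT (-0.31). At 30 min 1 member was then higher and 23 lower in cells labelled atf21Δ (median -0.38), and 0 were higher and 33 lower in WT (-0.50). Unscaled medians of all features at 15 and 30 min were -0.43 and -0.30 in cells labelled atf21Δ and -0.46 and -0.38 in WT. The shares of all features called without scaling are not given here, so these counts show nothing particular to the members. At 60 min 0 were higher in cells labelled atf21Δ. At 120 min 13 were lower in cells labelled atf21Δ (median -0.30), and 1 was higher and 9 lower in WT (-0.29). At 180 min 0 were higher in cells labelled atf21Δ (-0.37), and 1 was higher and 23 lower in WT (-0.41). Over time, 33 members changed in cells labelled atf21Δ without scaling. At 30 min the unscaled log2 change turned to -0.19 for asn1 and -0.014 for met11 in cells labelled atf21Δ, and to -0.33 for gdh1, -0.088 for gdh2, -0.040 for his7, -0.13 for leu3, -0.14 for met11 and -0.074 for met16 in WT. This scaling takes the typical feature as unchanged, and RNA per cell was not measured.

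Median-ratio scaling gave a WT median of -0.20 at 120 min. With it, with a pseudocount of 0.1 or 1, with no filter and with voom on the recovered reads, 1 member was higher in cells labelled atf21Δ than in WT. Voom also called 2 members higher at 60 min in WT.

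Deviations of same-numbered libraries correlated at -0.07 to 0.38 in cells labelled atf21Δ (median 0.21, 33 of 45 pairs over 0.1) and -0.23 to 0.50 in WT (median 0.15, 27 of 45). For other numbers the median was -0.08 in cells labelled atf21Δ (4 of 90 over 0.1) and -0.07 in WT (12 of 90). Same-numbered libraries thus resembled each other more often, but the labels name nothing shared by a number and not every pair passed 0.1, so the block was kept as an alternative. With a replicate block 5 members were called higher at 180 min in cells labelled atf21Δ. In WT, 4 were called higher at 30 min and 2 at 60 min, and 1 member was higher in cells labelled atf21Δ than in WT.

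Leaving out each library of cells labelled atf21Δ in turn, the members higher numbered 15 to 27, 7 to 11, 2 to 3, 2 to 3 and 2 to 4 over the 5 times in order, those lower 0 to 2, 11 to 17, 23 to 34, 16 to 24 and 5 to 10, and those changed over time 56 to 59. Leaving out each library of WT in turn, the members higher numbered 4 to 15, 1 to 4, 1 to 2, 2 to 2 and 0 to 2 over the 5 times in order, those lower 2 to 4, 13 to 19, 18 to 28, 7 to 15 and 7 to 19, and those changed over time 49 to 56. Members higher in cells labelled atf21Δ than in WT numbered 0 to 4. The members' median at 120 min ran between -0.28 and -0.20 in cells labelled atf21Δ and between -0.23 and -0.20 in WT, and at 60 min between -0.38 and -0.31 in WT. It ran between -0.15 and -0.039 at 180 min in cells labelled atf21Δ and between -0.14 and -0.062 at 30 min in WT.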
